A study of Mus musculus with 8 samples.

Results

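The 5 genes described here are the 4 named members of the albumin family in mouse liver, Alb (albumin), Afp (alpha-fetoprotein), Afm (afamin) and Gc (vitamin D-binding protein), together with Ttr (transthyretin), which shares their site of synthesis but not their ancestry. They were taken by gene symbol from 35975 genes with a listed transcript, and 13 of the 119414 transcripts listed belong to them. All 5 were listed and reached 10 estimated counts in each of the 8 libraries, the minimum for a test. For none of the 5 did the difference between mice infused with 4-hydroxyphenylacetic acid (4-HPAA) and mice infused with normal saline pass the test. Alb held 7.51% to 9.87% of all counts assigned to genes, whereas Afp held at most 58 counts in any mouse.

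Liver RNA came from C57BL/6 mice (C57BL/6J in the study's methods) that had received a cannula in the portal vein, the vessel that carries blood from the gut to the liver. A subcutaneous osmotic pump delivered either normal saline (4 mice) or 55 mM 4-HPAA in saline (4 mice) for 2 weeks. 4-HPAA is a phenolic acid made by gut microbes, and the comparison asks what the compound alone does to liver transcripts when it arrives by this route. Both groups underwent the same surgery, were single-housed afterwards and ate standard chow, so the controls also carried a cannula and a pump. Mice were bought at 8 to 10 weeks of age, both male and female. The sex of the sequenced mice was not given in the sources used here. The Y-linked gene Ddx3y lay between 72.1 and 89.5 CPM in all 8 libraries (CPM, counts scaled to 1000000 per library after TMM normalization). Each of the 8 thus held transcripts of a Y-linked gene, which female mice lack. Nothing in the labels says how the mice of a group were spread over surgery days, so p-values measure the spread between these samples.

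Hepatocytes make all 5 proteins and secrete them into plasma. Albumin maintains the osmotic pressure of blood and carries fatty acids, bilirubin and many drugs. Alpha-fetoprotein takes that place in the fetus and is silenced after birth. Afamin binds vitamin E and Wnt proteins, and vitamin D-binding protein carries vitamin D metabolites and captures actin released from damaged cells. Transthyretin, a tetramer, carries thyroxine and, through retinol-binding protein, vitamin A. Production of albumin and transthyretin is known to fall in inflammation.

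In the annotation of GRCm38, Alb (chr5:90460897-90476602), Afp (chr5:90490737-90508907) and Afm (chr5:90518932-90553543) stood head to tail on the plus strand of chromosome 5, 14.13 kb and 10.02 kb apart. Gc (chr5:89417522-89457898) lay 1003 kb before Alb on the minus strand. Ttr was on another chromosome. The main transcripts of Alb, Afp and Afm each had 15 exons, that of Gc had 13 and that of Ttr had 4. The longest open reading frames of the main transcripts coded for 608 residues (Alb), 605 (Afp), 608 (Afm), 476 (Gc) and 147 (Ttr). Aligned pairwise, Alb shared 36.2% of aligned residues with Afp and 31.1% with Afm, and Afp shared 33.8% with Afm. Gc shared 24.9% with Alb, 29.9% with Afp and 22.3% with Afm. The family proteins are held together by disulfide bonds, and the reading frames held 36 cysteines in Alb, 32 in Afp, 34 in Afm and 28 in Gc, against 2 in Ttr. No 31-base word of a member occurred in a transcript of another gene among the 116728 listed transcripts found in GENCODE M21. Reads of that length or longer that matched a member perfectly thus matched no other gene among these. The other 2686 listed transcripts were not searched.

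The start regions of the 4 family members are shown because promoters are where liver factors are known to act on these genes, and because all 4 hold the letters GTTAAT. Each is the stretch of 250 bases before the RefSeq transcription start, written 5′ to 3′ on the strand of the gene (RefSeq, GRCm38.p6), with matches to GTTAAT or its reverse complement in capitals. The last bases of the Afm window fall in the first exon of the GENCODE model. The Alb and Afp windows end at 90460869 and 90490713, some bases before the GENCODE starts at 90460897 and 90490737. Positions below are counted from the RefSeq start, so they differ from distances to the GENCODE start in these 3 genes.
Alb, chr5:90460620-90460869, plus strand: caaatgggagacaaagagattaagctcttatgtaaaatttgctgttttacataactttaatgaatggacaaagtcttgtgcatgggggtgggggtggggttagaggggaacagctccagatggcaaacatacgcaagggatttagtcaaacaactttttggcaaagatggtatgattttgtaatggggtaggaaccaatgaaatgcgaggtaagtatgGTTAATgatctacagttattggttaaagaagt
Afp, chr5:90490464-90490713, plus strand: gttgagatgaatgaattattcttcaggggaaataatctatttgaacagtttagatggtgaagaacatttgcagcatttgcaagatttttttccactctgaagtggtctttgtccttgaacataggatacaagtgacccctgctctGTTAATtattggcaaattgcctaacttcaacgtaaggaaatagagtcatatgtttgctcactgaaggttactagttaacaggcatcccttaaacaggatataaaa
Afm, chr5:90518699-90518948, plus strand: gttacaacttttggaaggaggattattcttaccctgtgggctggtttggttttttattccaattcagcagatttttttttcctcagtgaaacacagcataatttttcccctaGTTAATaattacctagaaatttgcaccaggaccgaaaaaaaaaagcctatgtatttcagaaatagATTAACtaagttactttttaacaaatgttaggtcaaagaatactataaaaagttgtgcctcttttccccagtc
Gc, chr5:89457899-89458148, minus strand: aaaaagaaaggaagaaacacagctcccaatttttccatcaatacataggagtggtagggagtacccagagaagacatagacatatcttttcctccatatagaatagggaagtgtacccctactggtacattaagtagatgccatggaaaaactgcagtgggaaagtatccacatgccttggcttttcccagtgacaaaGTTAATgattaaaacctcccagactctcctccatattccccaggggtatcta
All 4 windows held GTTAAT on one strand or the other, at -32 to -27 from the start in Alb, -105 to -100 in Afp, -138 to -133 and, reversed, -73 to -68 in Afm, and -52 to -47 in Gc. Among 32851 RefSeq windows of the same length, 6.43% held it. Since the 4 windows are shown partly for holding these letters, that share is a background and not a test. The D-box letters TTNTGTAA, read on both strands, occurred 3 times in the Alb window, in none of the other 3, and in 3.51% of all windows. CCAAT occurred in all 4 windows and in 33.9% of all windows, while TATAAA occurred in those of Afp and Afm and in 12.4% of all windows. These are matches of letters and not measured binding.

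Levels were compared between genes only per transcript length, as TPM, estimated counts divided by annotated length and scaled to 1000000 per library. On this scale Alb averaged 68480 TPM over the 8 mice (range 60280 to 79750) and was the gene of rank 1 in every library. Ttr followed at 5523 TPM (4962 to 5977, rank 29 to 35) and Gc at 4828 TPM (4304 to 5194, rank 30 to 41). Afm averaged 176 TPM (164.5 to 185.7) and Afp 1.87 TPM (0.965 to 2.40). The ranges of Ttr and Gc overlapped between mice, although Ttr was above Gc within each of the 8. This order rests on the annotated length of each transcript. No other pair of neighbours in the order overlapped. The mean ratio of Alb was 12.4 to Ttr, 14.2 to Gc, 389 to Afm and 41030 to Afp. Alb and Afp, 14.13 kb apart, thus stood at rank 1 and at rank 9841 to 11234 of the 18676 to 19057 genes above 0 in a library.

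**Figure D1:**
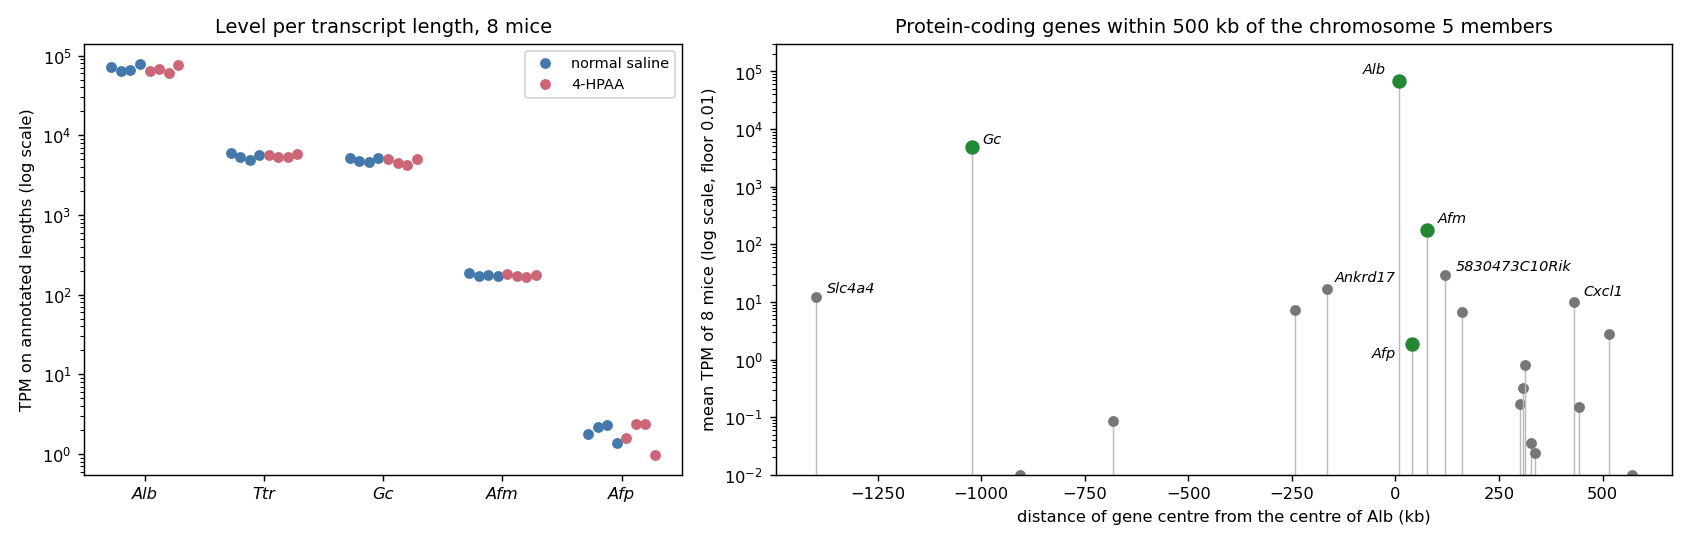
Left, TPM of each member in each of 8 mice (points; log scale), with Alb between 60280 and 79750 and Afp between 0.965 and 2.40. Right, mean TPM of the protein-coding genes within 500 kb of the chromosome 5 members, members in green. Positions are distances of gene centres from the start of Alb (kb), although the axis names the centre of Alb. Values under 0.01 are drawn at 0.01, and Afp lies between Alb and Afm.

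The neighbours of the cluster were modest by comparison. Of 29 annotated protein-coding genes within 500 kb of the members, 15 were tested and 0 had an adjusted p under 0.05 (edgeR), with log2 fold changes between -0.28 and 0.32. The nearest gene after Afm, 5830473C10Rik, began 7.56 kb beyond it and averaged 29.4 TPM, above Afp at 1.87 TPM. Its longest reading frame (620 residues, 38 cysteines) was 38.0% identical to Afp, 34.6% to Alb and 33.9% to Afm over aligned residues, values within the range of the named members among themselves or above it. Its normalized level was 42.7 ± 5.20 CPM (SD, n = 4) with normal saline and 40.3 ± 5.32 (SD, n = 4) with 4-HPAA. Ttr itself lay at chr18:20665280-20674321 on the plus strand. Near it, Garem1 was the gene with an unadjusted p under 0.05 (log2 fold change 0.27, SE 0.09, edgeR adjusted p = 0.9999), and its groups did not overlap, as was the case for 1.2% of all genes tested.

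For the comparison of the infusions, CPM values were normalized by TMM, which scales each library by the bulk of its genes. Of 12883 genes tested, 0 had an adjusted p under 0.05 (0%) with edgeR's quasi-likelihood test, DESeq2 called 2 and limma-voom 0. Unadjusted p under 0.05 was reached by 225 genes (1.75%). Of the members, 0 of 5 reached an unadjusted p under 0.05, and the 2 groups overlapped in all 5. The median log2 fold change of the members was -0.05, beside 0.0007 over all genes tested.

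Alb stood at 85220, 81230, 81030 and 100800 CPM with normal saline and at 83410, 81570, 73130 and 96890 CPM with 4-HPAA, in the order of replicates 1 to 4. The highest mouse of each group was replicate 4, and the other 3 controls lay within 81030 to 85220. The log2 fold change was -0.06 (SE 0.16, edgeR adjusted p = 0.9999), with a 95% interval on the fold of 0.753 to 1.23.

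Gc was measured at 5448, 5274, 5073 and 5742 CPM with normal saline and at 5786, 4838, 4591 and 5615 CPM with 4-HPAA. Replicates 2 and 3 of the 4-HPAA group were below every control, and replicate 1 was above every control. Its log2 fold change was -0.05 (SE 0.11, edgeR adjusted p = 0.9999, interval on the fold 0.812 to 1.15).

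Afm lay at 224.1, 222.8, 221.7 and 221.2 CPM in the controls and at 240.4, 211.6, 201.1 and 227.4 CPM with 4-HPAA. The controls were nearly equal, with a coefficient of variation of 0.579% that only 4 of the 12883 genes undercut, whereas that of the 4-HPAA group was 7.86%, beside a median of 12.3% over all genes in that group. The log2 fold change was -0.02 (SE 0.08, edgeR adjusted p = 0.9999, interval on the fold 0.879 to 1.11), the narrowest interval of the 5. The near-equality of the controls held on this scale only. As a share of counts Afm was 0.02228% ± 0.00053 (SD, n = 4) with normal saline and 0.02191% ± 0.00115 (SD, n = 4) with 4-HPAA. Per transcript length it was 177.6 ± 5.82 TPM (SD, n = 4) and 174.3 ± 7.58 TPM (SD, n = 4). The difference in spread was not tested.

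Afp was the exception in level: 1.44, 1.78, 1.74 and 1.55 CPM with normal saline and 1.26, 1.93, 1.71 and 1.15 CPM with 4-HPAA, from 33 to 58 estimated counts per library. The low and high ends of the range both fell in the 4-HPAA group. Its log2 fold change was -0.10 (SE 0.20, edgeR adjusted p = 0.9999), and the interval on the fold, 0.683 to 1.27, was the widest of the members.

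Ttr was at 4162, 3916, 3575 and 4172 CPM with normal saline and at 4278, 3790, 3828 and 4411 CPM with 4-HPAA. It was the member with a positive log2 fold change, 0.04 (SE 0.10, edgeR adjusted p = 0.9999, interval on the fold 0.877 to 1.21). For each member the sign turned when 1 library was left out: Alb to 0.02 without normal saline replicate 4 and to 0.0037 without 4-HPAA replicate 3, Gc to 0.0077 without 4-HPAA replicate 3, Afm to 0.0032 and 0.03 without 4-HPAA replicates 2 and 3, Afp to 0.0088 without 4-HPAA replicate 4, and Ttr to -0.0024 without normal saline replicate 3.

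**Figure D2:**
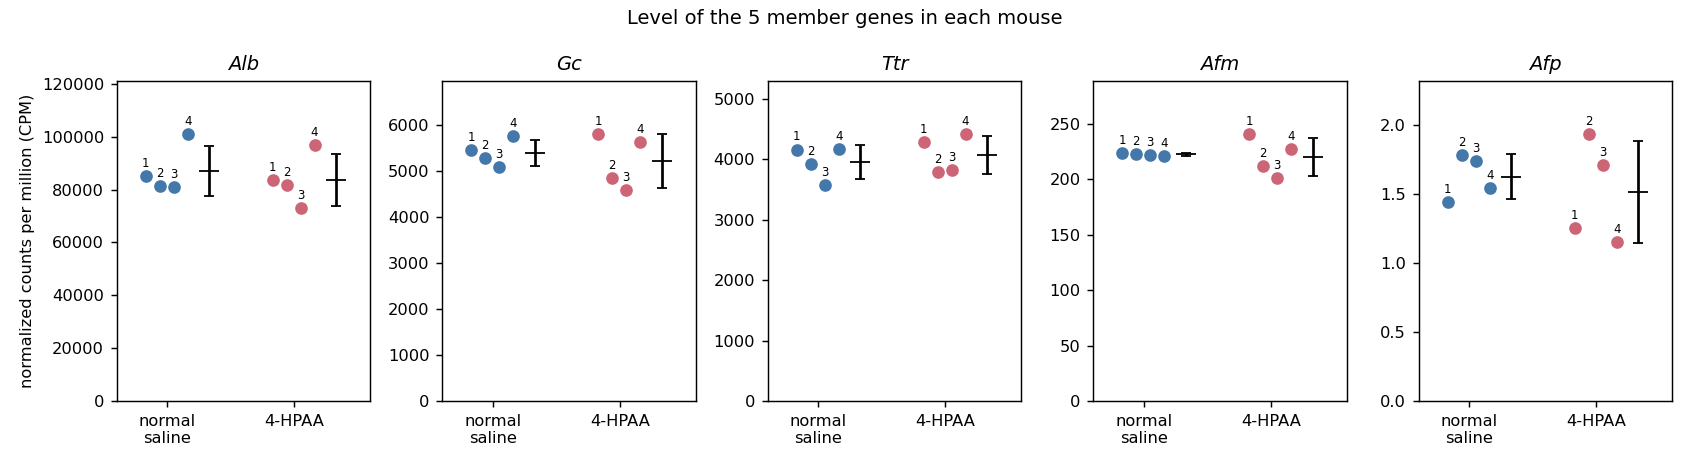
CPM (TMM-normalized) of each member gene in each mouse; numbers beside points are replicate numbers, and the bar at the right of each group is the mean with its SD (n = 4). The groups overlap for all 5 genes, and the 4 controls of Afm lie between 221.2 and 224.1.

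Together the 5 genes held 9.74%, 9.03%, 9.04% and 10.9% of the counts assigned to genes in the controls and 9.11%, 9.17%, 8.40% and 10.4% in the 4-HPAA mice. The means were 9.67% ± 0.864 (SD, n = 4) and 9.28% ± 0.844 (SD, n = 4), a difference of -0.389 percentage points that was smaller than either SD (two-sided exact permutation, p = 0.6). The smallest p that 4 against 4 allows is 0.0286. Without normal saline replicate 4 the difference was 0.0095 percentage points. In bulk tissue, fewer cells of a type and less RNA per cell cannot be told apart in such a share.

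Single transcripts were also tested. Of the 13 member transcripts, 9 reached 10 counts in each library and the other 4, left untested, were Afp-202 to Afp-205. Among the 9, 0 had an adjusted p under 0.05, as did 0 of 25533 transcripts (0%, edgeR, 979 with an unadjusted p under 0.05), and the groups overlapped for all 9, whereas 2.1% of all transcripts did not overlap. Alb and Gc came almost wholly from 1 transcript each. Alb-201 held between 2260360 and 2934090 estimated counts, beside 13.6 to 36.7 for Alb-202 and 14.0 to 46.0 for Alb-203, short models without an annotated reading frame. Gc-201 held 99.7% to 99.9% of Gc counts. Ttr has a single listed transcript.

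Afm-202, an annotated coding model with 10 exons beside the 15 of Afm-201, was estimated at 344, 309, 284 and 269 counts in the controls and at 274, 267, 212 and 91.4 counts with 4-HPAA. Replicate 4 of the 4-HPAA group was far below the other 7 mice. As a share of Afm it was 4.93%, 4.75%, 4.195% and 4.175% in the controls and 3.98%, 4.21%, 3.41% and 1.41% with 4-HPAA, a difference in means of -1.26 percentage points (exact permutation test, two-sided, p = 0.0857). The log2 fold change was -0.49 (SE 0.29, edgeR adjusted p = 1) and -0.24 without 4-HPAA replicate 4.

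Gc-202, a coding model with 5 exons, had 446, 305, 358 and 570 counts with normal saline and 324, 191, 329 and 424 with 4-HPAA. The lowest and highest mice were in different groups, yet the groups overlapped. The log2 fold change was -0.37 (SE 0.27, edgeR adjusted p = 1), and with 1 library left out it ran from -0.56 (without 4-HPAA replicate 4) to -0.17 (without normal saline replicate 4), with -0.19 without 4-HPAA replicate 2. The program that made the counts divides reads shared by the transcripts of a gene among them, so these values are estimates of that division.

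The low level of Afp was also spread over its models. Afp-201, the main coding transcript, held 63.9% to 95.6% of Afp counts in a mouse, and the retained-intron models Afp-203 and Afp-205 held up to 18.86% and 18.04%. Afp-201 itself was estimated at 24.0 to 43.5 counts per library, with a log2 fold change of -0.14 (SE 0.22, edgeR adjusted p = 1) that became -0.28 without 4-HPAA replicate 2 and -0.016 without 4-HPAA replicate 1.

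**Figure D3:**
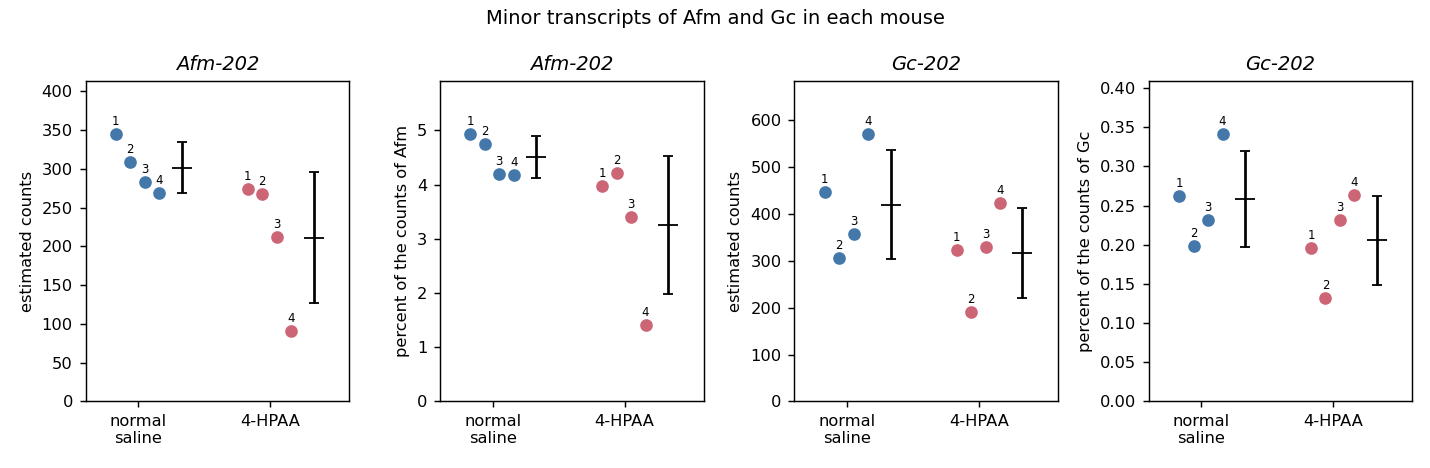
Estimated counts of Afm-202 and Gc-202 in each mouse and the percent of their gene's counts they make up; numbers are replicate numbers and bars are mean and SD (n = 4). Afm-202 in 4-HPAA replicate 4 is at 91.4 counts and 1.41%, and the groups overlap in each panel.

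How the members varied together was examined over the 8 mice as correlations of log2 CPM, 10 pairs in all. The 6 pairs among Alb, Afm, Gc and Ttr had positive coefficients and the 4 pairs with Afp had negative ones. Afm and Gc gave r = 0.88 (exact permutation p = 0.00164, adjusted over 10 pairs p = 0.0164) and Spearman's rho = 0.76 (exact permutation p = 0.0368, adjusted p = 0.0735). Leaving out the 2 mice farthest from the median of Afm, 4-HPAA replicates 1 and 3, gave r = 0.75 over 6. In the controls Afm ran only from 221.2 to 224.1 CPM, and replicate 4 had the lowest Afm and the highest Gc among them. The coefficient for Afm and Gc thus rests mainly on the 4-HPAA mice. Afp and Ttr gave r = -0.87 (exact permutation p = 0.00533, adjusted p = 0.0267) and rho = -0.86 (exact permutation p = 0.0107, adjusted p = 0.0735), and r = -0.73 without 4-HPAA replicates 1 and 4. By Spearman's rho 0 of 10 pairs had an adjusted p under 0.05.

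The other 8 pairs did not pass the adjustment by either coefficient. Of these, Alb with Gc had r = 0.78 (exact permutation p = 0.0242, adjusted p = 0.063) and rho = 0.79 (exact permutation p = 0.0279, adjusted p = 0.0735), and Gc with Ttr had r = 0.78 (exact permutation p = 0.0252, adjusted p = 0.063) and rho = 0.83 (exact permutation p = 0.0154, adjusted p = 0.0735). Without the mice farthest from the median of the gene named first, these became r = 0.80 (without both replicates 4) and r = 0.89 (without 4-HPAA replicates 2 and 3). On deviations from the group means, 6 of 10 pairs had an adjusted p under 0.05 with exact permutation over all libraries. With permutation only within each group, chosen after seeing the data because deviations sum to 0 in each group, 0 of 10 pairs did. In this last form Afm with Gc had r = 0.88 (permutation p = 0.0486, adjusted p = 0.122) and Afp with Ttr r = -0.86 (permutation p = 0.0243, adjusted p = 0.0984). The 8 libraries share their counting, and Afp rests on few counts.

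**Figure D4:**
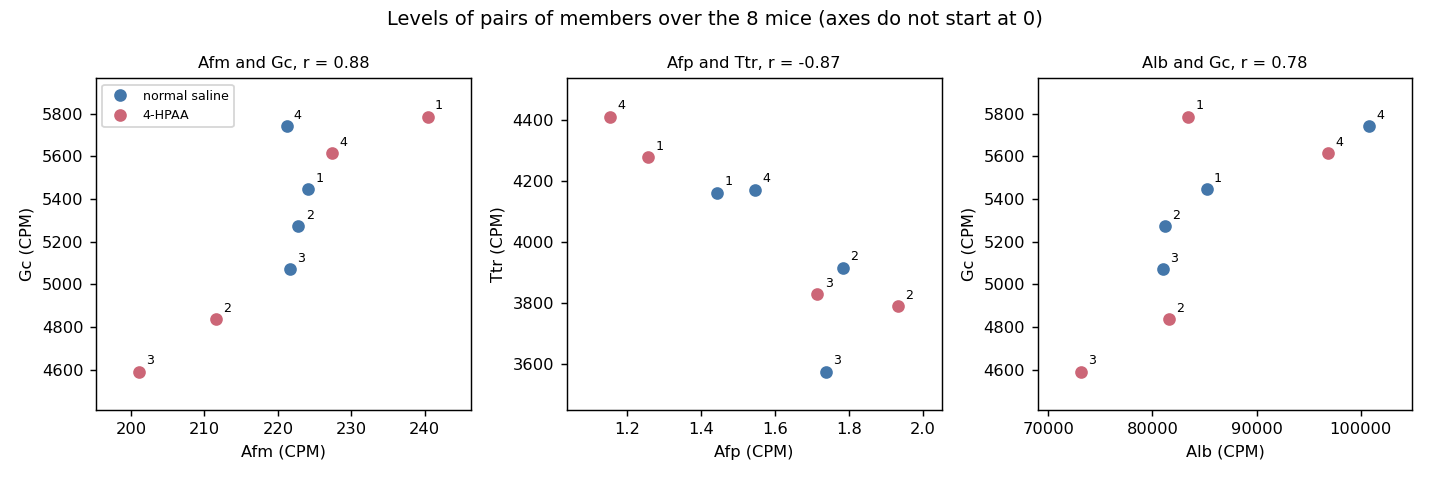
CPM of Afm against Gc, Afp against Ttr and Alb against Gc, 1 point per mouse with its replicate number; axes do not start at 0. Over the 8 mice r is 0.88 for Afm and Gc and -0.87 for Afp and Ttr. Both groups are spread along the trend for Afp and Ttr and for Alb and Gc. For Afm and Gc the controls lie between 221.2 and 224.1 CPM of Afm, and the trend is that of the 4-HPAA mice.

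As a description, the 3 tested genes closest to Alb, Afm, Gc and Ttr by r of log2 CPM over the 8 libraries were Arfgap2, Coq8b and Sptssa for Alb (r = 0.97 for each), Tgfb1i1, Tmem258 and Pvr for Afm (r = 0.97, 0.94 and 0.93), Serpina1d, Ndufa9 and Mtch1 for Gc (r = 0.97, 0.97 and 0.96) and Acot7, Dctn3 and Tceal9 for Ttr (r = 0.99, 0.99 and 0.98). With 8 libraries many genes come that close: 145 genes had r over 0.9 with Ttr, 61 with Gc, 58 with Alb, 34 with Afp and 13 with Afm. Serpina1d is the one of the genes named here that, like Alb, Gc and Ttr, codes for an abundant plasma protein. That protein is a protease inhibitor of the alpha-1-antitrypsin family, and its transcripts averaged 3580 CPM.

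A list of factors known to act on these promoters was examined at the level of RNA, and the list may not be complete. Of 21 in the list, 21 were tested, 0 rose and 0 fell at an adjusted p under 0.05 (edgeR), and the median log2 fold change was -0.0076. Hnf4a, a nuclear receptor central to hepatocyte gene expression, had a log2 fold change of 0.03 (SE 0.10). Foxa2, a forkhead factor that opens liver enhancers, stood at 12.4, 19.1, 11.9 and 16.4 CPM in the controls and 22.21, 12.00, 32.64 and 25.39 CPM with 4-HPAA. These overlapped, with a log2 fold change of 0.63 (SE 0.27, edgeR adjusted p = 0.9999).

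Onecut1, a liver-enriched homeobox factor, differed strongly from mouse to mouse: 16.3, 137, 100 and 12.9 CPM in the controls and 38.7, 33.9, 134 and 34.1 CPM with 4-HPAA, with both extremes within the controls. Zhx2 and Zbtb20, which are known repressors of Afp after birth, had log2 fold changes of -0.12 (SE 0.09) and 0.21 (SE 0.22), and Trp53, another repressor of Afp, one of -0.16 (SE 0.10). Of 7 other genes of the fetal liver in the list, H19 was not analysed here and 6 had values. Of these 1 was tested, Igf2, at 0.448 to 1.10 CPM, with a log2 fold change of 0.02 (SE 0.27, edgeR adjusted p = 0.9999), and Dlk1 and Lin28b had a mean of at most 3 counts.

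Among 13 other plasma carrier proteins 0 rose and 0 fell (edgeR, adjusted p under 0.05), with a median log2 fold change of -0.05. Rbp4, which travels in plasma bound to transthyretin, had a log2 fold change of 0.0059 (SE 0.12), and Trf, the iron carrier transferrin, one of -0.15 (SE 0.14). Serpina7, which codes for the thyroxine-binding globulin, stood at 45.9, 54.9, 26.1 and 40.1 CPM in the controls and 34.0, 27.3, 25.8 and 38.4 CPM with 4-HPAA. Its groups overlapped (log2 fold change -0.41, SE 0.21, edgeR adjusted p = 0.9999). Of 8 genes of thyroid hormone handling, including Serpina7 and Rbp4, 0 rose and 0 fell, with a median of 0.02.

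For vitamin D and actin handling, the cargo of Gc, 4 of 7 genes were tested, 0 rose and 0 fell, and the median was -0.04. Cyp2r1, a vitamin D 25-hydroxylase, had a log2 fold change of 0.06 (SE 0.12). Cyp24a1, which degrades vitamin D, was at 0 in all libraries, and Cyp27b1 and the receptor Vdr had means of at most 3 counts. Of 6 genes for albumin receptors and recycling 5 were tested, 0 rose and 0 fell, and the median was 0.06. Fcgrt, the receptor that returns albumin to plasma, had a log2 fold change of 0.06 (SE 0.08). Of 8 genes for disulfide formation and proprotein cleavage, steps that albumin passes through in the secretory pathway, 8 were tested, 0 rose and 0 fell, and the median was -0.0038. Furin, which removes the propeptide of albumin, had a log2 fold change of -0.0025 (SE 0.07).

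Levels of acute phase genes in inflammation run opposite to those of Alb and Ttr. Of 12 such genes, 0 rose and 0 fell at an adjusted p under 0.05 (edgeR). Negative fold changes were found for 11 of 12, some near 0 (Orm2 -0.0031, Fga -0.0073), and Saa3 was at 0.30 (SE 0.19). The median was -0.13. Over all genes tested, 6394 of 12883 were lower and the median was 0.0007. The plasma carrier list, which shares Orm1 and Hp with this one, had 11 of 13 lower. Apcs, the serum amyloid P component, had a log2 fold change of -0.44 (SE 0.17, edgeR adjusted p = 0.9999). Saa1, a serum amyloid A, stood at 38.5, 37.9, 45.8 and 37.5 CPM in the controls and at 52.4, 26.0, 24.1 and 30.2 CPM with 4-HPAA. Lcn2 was at 17.6 CPM in normal saline replicate 1 and between 3.67 and 6.98 CPM in the other 7 mice.

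**Figure D5:**
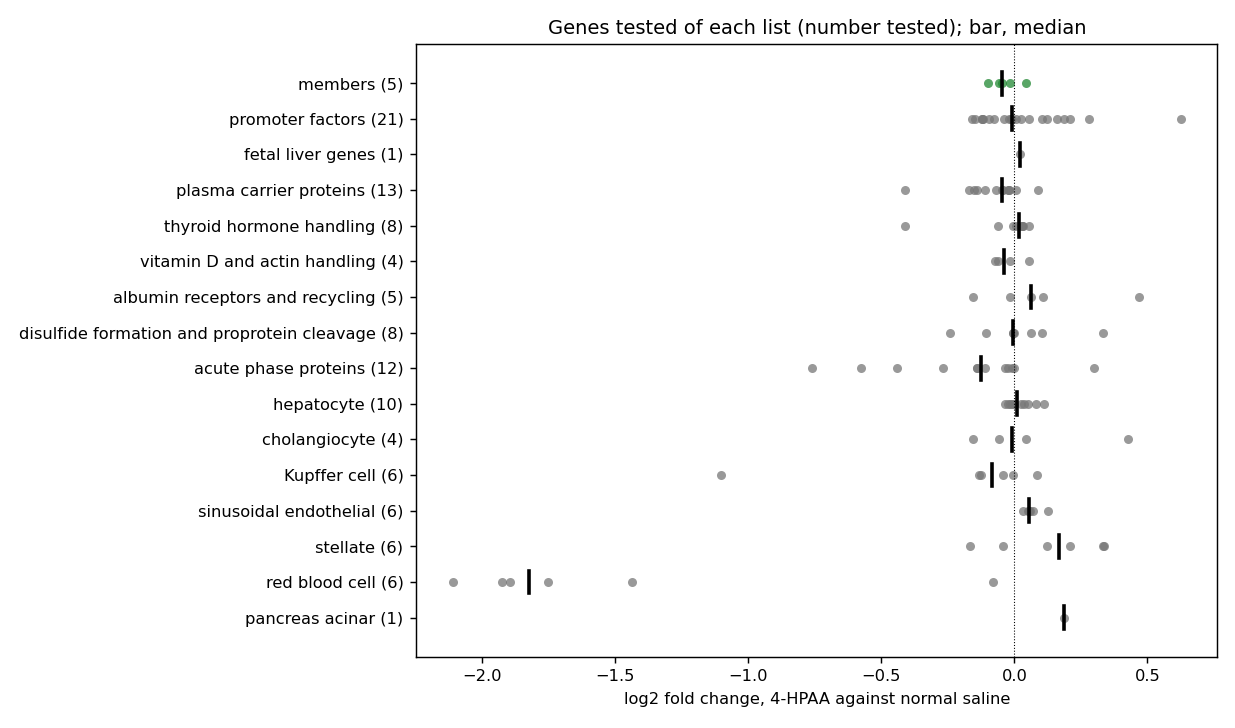
Log2 fold change (4-HPAA against normal saline) of each tested gene, by list, with the number tested in parentheses and the median as a bar. The members lie between -0.10 and 0.04, and the red blood cell list has the lowest median, -1.82; 0 of the genes shown had an adjusted p under 0.05.

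The tissue label was checked against cell type markers. The 10 hepatocyte markers, all tested, summed to between 44540 and 51240 CPM in the 8 libraries, with a median log2 fold change of 0.01. Markers of other cells were low but uneven between mice. The 6 Kupffer cell markers summed to 73.6 to 247 CPM with normal saline and 65.8 to 198 CPM with 4-HPAA, and the 6 sinusoidal endothelial markers to 102 to 149 CPM and 100.6 to 166.5 CPM. The 6 stellate markers summed to 94.8 to 191 CPM and 108 to 184 CPM, and the 6 cholangiocyte markers to 23.7 to 46.2 CPM and 24.3 to 38.2 CPM. In each group the sums of the Kupffer cell, sinusoidal endothelial and stellate lists were lowest in replicate 4, the mouse with the highest Alb. Other values broke this pattern. The cholangiocyte sum was lowest in normal saline replicate 4 but highest in 4-HPAA replicate 4. The hepatocyte sum was highest in normal saline replicate 1 and in 4-HPAA replicate 4. By group, Lyve1 was highest in normal saline replicate 1 (17.1 CPM) and in 4-HPAA replicate 4 (15.5 CPM), and Marco was lowest in replicate 1 of each. The part of these cells in the spread of Alb was not tested. Of the 6 pancreas acinar genes, Prss2 and Pnlip were at 0 in all libraries and 3 others had means of at most 3 counts, whereas Cela1 was at 7.83 to 14.2 CPM in every library (log2 fold change 0.19, SE 0.17). No gene of these lists had an adjusted p under 0.05.

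Red blood cell markers set 2 libraries apart. The 6 genes summed to 2586 CPM in normal saline replicate 2 and 251 to 380 CPM in the other controls, and to 738 CPM in 4-HPAA replicate 4 and 156 to 167 CPM in the other 4-HPAA mice. Apart from those 2 libraries, the sums of the controls still lay above those of the 4-HPAA mice, a difference that was not tested. All 6 genes had negative log2 fold changes, with a median of -1.82, and 0 of them had an adjusted p under 0.05 (edgeR). The groups did not overlap for Car2 (log2 fold change -1.43, SE 0.60), as was the case for 1.2% of all genes tested. With those 2 libraries left out, an alternative chosen after seeing the data, the log2 fold change was -0.17 for Alb (SE 0.23), -0.10 for Gc (SE 0.15), -0.04 for Afm (SE 0.10), 0.05 for Afp (SE 0.22) and -0.01 for Ttr (SE 0.14), and 0 genes had an adjusted p under 0.05 with edgeR (adjusted p = 0.9998 for each member).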

How the data were processed

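Liver RNA of 4 mice per group was sequenced as directional mRNA libraries, paired-end reads of 100 bp. The authors pseudo-aligned the reads with kallisto against GRCm38.p6 and deposited estimated counts per transcript, without normalization and without pooling. Column names gave the mouse of each library, with 0 columns left over. Totals lay between 29559978 and 30673398 estimated counts; at this depth the spread between mice sets the precision, except for Afp.

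Counts were summed per gene by GENCODE M21 (116728 of 119414 transcripts matched; the rest held 0.703% to 1.06% of a library) and rounded. The tests used edgeR 4.0.16 (quasi-likelihood, TMM, R 4.3.3) on genes reaching 10 counts in each of the 8 libraries, at an adjusted p under 0.05 (Benjamini-Hochberg), with alternatives of DESeq2 1.42.0, limma-voom (limma 3.58.1), other normalizations and filters, libraries left out and the replicate number as a block. Standard errors are the log2 fold change over the root of F; the intervals on folds follow from them. TPM here are counts over annotated length, scaled to 1000000. log2 CPM for correlations used a prior count of 2. Steps were tested on simulated data.

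The members and gene lists were chosen with earlier results of these data known. Named are the members, genes of the lists, the 3 genes most like Alb, Afm, Gc and Ttr, and protein-coding genes within 500 kb of the members; others are marked. RefSeq windows matched 4 of 5 members; that of Ttr is not shown. Proteins were read from the longest reading frame. Some genes that this rule would name are not reported here.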

Additional observations from a re-analysis of the deposited data

Results flagged for a closer look

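Of 60 groups of 4 mice examined (members, their transcripts, their summed share and summed lists), 5 held 1 mouse apart from the other 3, by a gap past Dixon's 95% critical value as a share of the group's range. Chance gives about 1 in 20 groups, which is 3 of 60. None was a member, a member transcript or the share of the members. The summed CPM of promoter factors was lowest in normal saline replicate 4, 1903 beside 2050 to 2074 (gap 0.86 of the range). Hepatocyte markers (51240 beside 44800 to 45860, gap 0.835) and cholangiocyte markers (46.2 beside 23.7 to 27.4, gap 0.835) were highest in normal saline replicate 1. Red blood cell markers were highest in normal saline replicate 2 (2586 beside 251 to 380, gap 0.945) and in 4-HPAA replicate 4 (738 beside 156 to 167, gap 0.981).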

How the results depend on the processing

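No member and no member transcript had an adjusted p under 0.05 under any alternative run, and adjusted p for the members lay between 0.9989 and 1 over the 16 alternatives of each. With other tests, normalizations and filters and with the replicate block, log2 fold changes ran from -0.06 to -0.05 for Alb, -0.12 to -0.10 for Afp, -0.02 to -0.01 for Afm, -0.06 to -0.04 for Gc and 0.03 to 0.05 for Ttr. With 1 library left out they ran from -0.134 to 0.022 (Alb), -0.239 to 0.0088 (Afp), -0.056 to 0.026 (Afm), -0.098 to 0.0077 (Gc) and -0.0024 to 0.077 (Ttr), and for the transcripts from -0.126 to 0.032 (Alb-201), -0.087 to 0.017 (Gc-201), -0.022 to 0.055 (Afm-201), -0.33 to 0.18 (Alb-202), -0.46 to -0.019 (Alb-203), -0.28 to -0.016 (Afp-201), -0.65 to -0.24 (Afm-202), -0.56 to -0.17 (Gc-202) and 0.0049 to 0.08 (Ttr-201). With both libraries rich in red blood cell markers left out, Alb was at -0.175, Afp turned to 0.047 and Ttr to -0.0105, an alternative chosen after seeing the data. The cause was not tested. DESeq2 called 2 genes, Zfp36l2 and Ggnbp1, named after their values were seen. With 1 library left out 0 to 1 genes were called, the 1 being CAAA01147332.1 without 4-HPAA replicate 1. The share held by the members differed by -0.773 to 0.0095 percentage points with 1 library left out. Instead of 2 of 10 member pairs, 6 passed on deviations from group means and 0 with permutation within groups, the latter chosen after seeing the data.

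The replicate numbers shared by both groups were not shown to pair the mice. Same-numbered libraries had correlations of deviations between 0.04 and 0.48, 3 of 4 over 0.1. Libraries of different numbers had values between -0.477 and 0.466, 3 of 12 over 0.1. With the replicate block 0 genes passed (336 at an unadjusted p under 0.05), and Alb-202 turned to -0.0042. Of the member transcripts 2 then had an unadjusted p under 0.05, against 0 without the block: Afm-202 at -0.58 (SE 0.24, edgeR adjusted p = 0.9999) and Gc-202 at -0.39 (SE 0.13, edgeR adjusted p = 0.9823). Depth limits Afp, at 33 to 58 counts, and Alb-202 and Alb-203.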
